A study of Mus musculus with 6 samples.

Results

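Tek, Tie1, Angpt1, Angpt2 and Ptprb, the genes of the Tie receptors, their angiopoietin ligands and the phosphatase that acts on the receptors, were followed by gene symbol through a table of 23420 genes, in which all 5 had a row. RNA had been sequenced from endothelial cells of Csf1r-iCre;RosatdTomato mouse embryos at embryonic day 12.5, sorted from whole embryos as PECAM1+, CD45-, CD11b- and KIT- cells and divided into a tdTom+ and a tdTom- group of 3 libraries each, numbered 1 to 3. Both groups carry the same alleles: a Cre recombinase driven by the promoter of Csf1r, a gene of the myeloid lineage, and a Rosa26 reporter that makes the red protein tdTomato once Cre has acted. The red label thus marks past or present activity of that promoter in a cell or its ancestors, and each library mixes endothelium of different organs, since whole embryos were sorted. The design asks whether endothelial cells with this history differ from the other endothelial cells of the embryos. Nothing in the labels says that libraries of one group came from separate embryos, although the protocol names 3 embryos, so p-values measure the spread between these libraries.

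TIE2, the product of Tek, is a receptor tyrosine kinase of endothelial cells that binds angiopoietins. Angiopoietin 1 activates it and comes mostly from cells around the vessel and from heart muscle, and is also held by megakaryocytes, while angiopoietin 2 is made by the endothelium itself and can activate or block the receptor depending on context. TIE1 binds no angiopoietin with high affinity and acts in complexes with TIE2, and VE-PTP, the product of Ptprb, removes phosphate from TIE2 and from the junction protein VE-cadherin. Active TIE2 signals through PI3 kinase and AKT, which keeps the transcription factor FOXO1 out of the nucleus, and Angpt2 is itself a FOXO1 target.

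The start regions of both receptor genes, on chromosome 4, are shown because only these were matched. They are also the members with the highest levels in every library. RefSeq start regions (build GRCm38.p6, 250 bases before to 50 after the start) were matched for 2 of the 5 members, and not for Angpt1, Angpt2 and Ptprb. Capitals mark GGAA, the core that ETS factors bind, on either strand (written TTCC where it lies on the opposite strand). The Tek region is chr4:94739039-94739338 on the plus strand and the Tie1 region is chr4:118489800-118490099 on the minus strand, both written 5′ to 3′ along the gene. The RefSeq start of Tek is that of its GENCODE gene model, while that of Tie1, at 118489849, lies 212 bases inside the GENCODE model given below, so most of the Tie1 region falls within that model.
Tek: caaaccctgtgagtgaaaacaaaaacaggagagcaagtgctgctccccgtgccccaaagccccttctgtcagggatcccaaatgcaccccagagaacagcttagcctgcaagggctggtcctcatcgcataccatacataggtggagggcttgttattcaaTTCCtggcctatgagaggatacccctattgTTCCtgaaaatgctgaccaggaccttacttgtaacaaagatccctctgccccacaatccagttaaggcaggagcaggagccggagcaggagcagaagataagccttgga
Tie1: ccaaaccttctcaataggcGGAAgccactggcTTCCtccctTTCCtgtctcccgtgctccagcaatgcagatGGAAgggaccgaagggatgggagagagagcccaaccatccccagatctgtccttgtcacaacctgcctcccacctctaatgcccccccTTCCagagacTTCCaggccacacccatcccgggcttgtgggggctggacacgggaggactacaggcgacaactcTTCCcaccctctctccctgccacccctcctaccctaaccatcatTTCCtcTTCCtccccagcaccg
The Tek region held 2 matches to GGAA and the Tie1 region 9. At least 1 match was found in 96.0% of 32851 start regions of this length, at least 2 in 84.6%, and at least 9 in 1.59%. AGATAA, a form of the site that GATA factors bind, was matched once in the Tek region, as in 11.2% of all start regions, and was not found in that of Tie1. CANNTG, the E-box, had 2 matches in Tek and 1 in Tie1, and 72.3% of all regions held one. TGTTTAC, a form of the FOXO site, was in neither and in 3.65% of all regions. All searches covered both strands, and a match is a run of letters, not a shown binding site.

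Libraries held 8919887 to 11767956 counts, and 13142 genes were abundant enough to test, all 5 members among them. At least 1 count was found for 14432 to 15300 genes in tdTom+ and for 15850 to 16109 genes in tdTom- libraries. Whether this bears on genes at 0 in the tdTom+ libraries was not tested. Endothelial markers were at a like level throughout: the 12 core genes summed to 7836 to 8316 CPM (counts scaled to a fixed library total) in tdTom+ and 7869 to 8093 CPM in tdTom- libraries, and Pecam1 had 8224 to 10514 counts. Of the other sort genes, Ptprc (CD45) had at most 22 counts and Itgam (CD11b) at most 12, while Kit had 890 to 1435. Kit had 86.6 ± 6.0 CPM in the tdTom+ and 119 ± 6.09 CPM in the tdTom- libraries (SD, n = 3), and missed the threshold (adjusted p = 0.0581 by edgeR). Pecam1 had 830 ± 57.4 against 929 ± 36.2 CPM (SD, n = 3; adjusted p = 0.413 by edgeR). Over all genes, 101 were higher and 107 lower in tdTom+ cells, 1.58% of the tested genes (quasi-likelihood F-test of edgeR, p under 0.05 after Benjamini-Hochberg adjustment). Leaving out 1 library lowered those 208 calls to 126 for tdTom+ replicate 1, and to 83, 71 and 62 for tdTom- replicates 1, 2 and 3.

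None of the 5 members passed the test of a difference between the fractions: 0 of 5 were called, against 1.58% of all tested genes. DESeq2 and limma-voom also called 0 of 5, and 0 had an unadjusted p under 0.05, against 10.7% of all tested genes with edgeR. The ranges of the groups overlapped for all 5, while 17.2% of tested genes had groups that did not overlap. The median log2 change of the members, tdTom+ over tdTom-, was -0.008, beside 0.0 for all tested genes. How closely a difference was bounded varied among them, and was tightest for the receptors and widest for Angpt1. In bulk libraries, fewer cells of a type and less RNA per cell cannot be told apart.

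**Figure D1:**
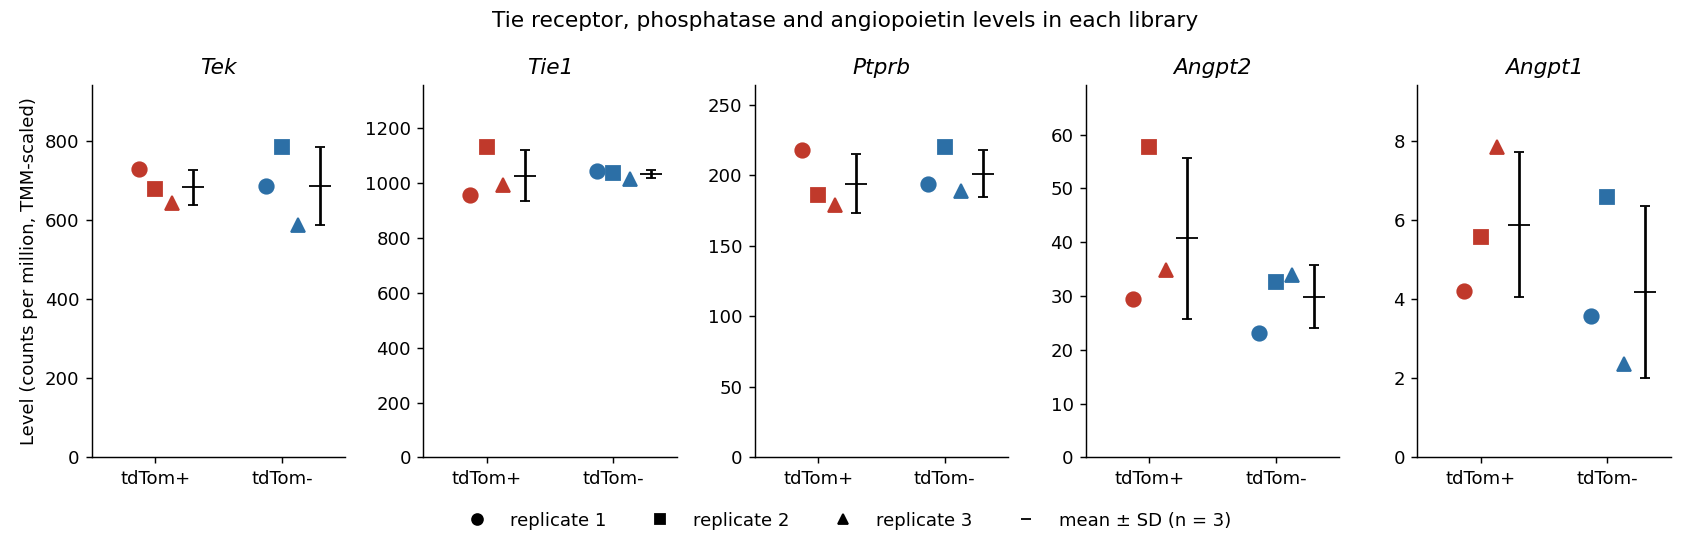
Level of each member in each library (vertical axis, CPM with TMM-scaled library sizes, starting at 0 and scaled per gene); points are libraries, shaped by replicate number and coloured by fraction, and bars are the mean and SD of 3 libraries. The fractions overlap for all 5 genes, and tdTom+ replicate 2 stands above the other libraries for Angpt2, at 57.7 CPM.

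Tek, the angiopoietin receptor gene (chromosome 4, 94739289 to 94874976, plus strand, mm10), had 728, 677 and 642 CPM in tdTom+ replicates 1, 2 and 3, from 8312, 7402 and 6873 counts. In tdTom- replicates 1, 2 and 3 it had 686, 784 and 588 CPM, from 7083, 9276 and 5262 counts. The tdTom- libraries held both the highest and the lowest value, with the 3 tdTom+ libraries between them. Means were 682 ± 43.5 CPM in the tdTom+ and 686 ± 98.0 CPM in the tdTom- libraries (SD, n = 3). The log2 change was -0.009 ± 0.098 (SE; adjusted p = 0.99 by edgeR), and its 95% interval of -0.23 to 0.21 corresponds to 0.855-fold to 1.16-fold. A difference in Tek larger than that interval allows was thus not seen at 5262 to 9276 counts per library.

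Tie1, the gene of the partner receptor (chromosome 4, 118471191 to 118490061, minus strand), was the most abundant member. It had 956, 1132 and 993 CPM in tdTom+ replicates 1, 2 and 3, and 1044, 1038 and 1016 CPM in tdTom- replicates 1, 2 and 3. All 3 tdTom- values lay inside the tdTom+ range, and their SD of 15.1 CPM around 1033 was the smallest relative spread of any member, at 1.46%. The tdTom+ mean was 1027 ± 92.6 CPM (SD, n = 3). Its log2 change of -0.008 ± 0.071 (SE; adjusted p = 0.987 by edgeR) had a 95% interval of -0.17 to 0.15, or 0.892-fold to 1.11-fold, the narrowest of the 5.

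Within a library, Tie1 had more counts than Tek everywhere. The ratio of Tek to Tie1 counts was 0.762, 0.598 and 0.646 in tdTom+ replicates 1, 2 and 3 and 0.657, 0.755 and 0.579 in tdTom- replicates 1, 2 and 3. This ratio needs no library size, so it compares the receptors free of the scaling between libraries. On the log2 scale the mean ratio was -0.59 ± 0.18 in tdTom+ and -0.60 ± 0.19 in tdTom- cells (SD, n = 3), a difference of 0.011 (two-sided exact permutation test, p = 0.9, adjusted p = 0.9 over the 3 ratios compared). With 3 libraries against 3 the smallest p this test can give is 0.1.

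Ptprb, the gene of the phosphatase VE-PTP (chromosome 10, 116275523 to 116389535, plus strand), had 218, 186 and 179 CPM in tdTom+ replicates 1, 2 and 3. In tdTom- replicates 1, 2 and 3 it had 194, 220 and 189 CPM. The highest value of each group was nearly the same, and the groups overlapped over most of their range. Means were 194 ± 20.9 CPM in the tdTom+ and 201 ± 16.6 CPM in the tdTom- libraries (SD, n = 3). The log2 change was -0.049 ± 0.10 (SE; adjusted p = 0.926 by edgeR), with a 95% interval of -0.27 to 0.17, or 0.83-fold to 1.13-fold.

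The count ratio of Ptprb to Tek, a phosphatase gene to that of its substrate receptor, was followed in the same way. It was 0.3, 0.274 and 0.279 in tdTom+ replicates 1, 2 and 3 and 0.283, 0.28 and 0.321 in tdTom- replicates 1, 2 and 3. The log2 ratio had an SD of 0.067 in tdTom+ and 0.109 in tdTom- cells, where that of Tek to Tie1 had SDs of 0.178 and 0.192. Its difference between the fractions was -0.05 (two-sided exact permutation test, p = 0.5, adjusted p = 0.9 over 3 ratios). Tek and Ptprb were both highest in tdTom- replicate 2 and next highest in tdTom+ replicate 1. Ratios of genes outside the members were not computed, so the small spread is not shown to be particular to this pair.

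Angpt2, the ligand gene expressed by endothelium (chromosome 8, 18690263 to 18741562, minus strand), had 29.5, 57.7 and 34.9 CPM in tdTom+ replicates 1, 2 and 3, from 337, 631 and 374 counts. In tdTom- replicates 1, 2 and 3 it had 23.1, 32.6 and 34.0 CPM, from 239, 386 and 304 counts. Apart from tdTom+ replicate 2, the libraries of both fractions lay between 23.1 and 34.9 CPM. Means were 40.7 ± 15.0 CPM in the tdTom+ and 29.9 ± 5.90 CPM in the tdTom- libraries (SD, n = 3). The log2 change of 0.44 ± 0.25 (SE) did not pass (adjusted p = 0.612 by edgeR, unadjusted 0.109), and its 95% interval ran from -0.12 to 1.01, or 0.922-fold to 2.01-fold. Without tdTom+ replicate 2 the log2 change was 0.11, with an interval of -0.37 to 0.58, and without tdTom+ replicate 1 it was 0.63, with an interval of 0.051 to 1.21 that lies above 0 but an adjusted p of 0.319 by edgeR.

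By replicate number Angpt2 was higher in the tdTom+ library in 3 of 3 pairs, as were 15.5% of all tested genes, by 0.34, 0.81 and 0.04 on the log2 scale of CPM with 0.5 added. With the replicate number as a block the log2 change was 0.41 ± 0.19 (SE; adjusted p = 0.445 by edgeR), with an interval of -0.008 to 0.83. Megakaryocyte and platelet markers were also highest in tdTom+ replicate 2, where the list of 12 summed to 536 CPM, against 290 and 336 CPM in tdTom+ replicates 1 and 3 and 37.9 to 55.9 CPM in the tdTom- libraries. None of those 12 genes was at 0 in all tdTom- or all tdTom+ libraries, and their part in the Angpt2 values was not tested.

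Angpt1, the gene of the activating ligand (chromosome 15, 42424723 to 42676977, minus strand), was the least abundant member. It had 48, 61 and 84 counts in tdTom+ replicates 1, 2 and 3 and 37, 78 and 21 counts in tdTom- replicates 1, 2 and 3. These were 4.21, 5.58 and 7.84 CPM in tdTom+ and 3.58, 6.59 and 2.35 CPM in tdTom- libraries, with overlapping ranges. Means were 5.88 ± 1.84 and 4.18 ± 2.18 CPM (SD, n = 3). The log2 change of 0.48 ± 0.49 (SE) did not pass (adjusted p = 0.819 by edgeR), and its 95% interval of -0.61 to 1.57, or 0.657-fold to 2.98-fold, is too wide to tell a moderate rise from a fall at this depth. Of its exon bases, 737 lie opposite exons of Gm17473 on the other strand, and reads of the overlap cannot be told apart without strand.

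Markers of mural and mesenchymal cells, heart muscle and megakaryocytes, which can supply angiopoietin 1, were read beside its values. The 17 mural and mesenchymal markers summed to 325, 222 and 735 CPM in tdTom+ replicates 1, 2 and 3 and to 1207, 540 and 702 CPM in tdTom- replicates 1, 2 and 3. In tdTom+ cells the sum and Angpt1 were both highest in replicate 3, and in tdTom- cells Angpt1 was highest in replicate 2, where the sum was lowest. The 10 heart muscle markers summed to 30.6 to 44.7 CPM in tdTom+ and 46.8 to 69.9 CPM in tdTom- libraries. The megakaryocyte and platelet sum was 290, 536 and 336 CPM in tdTom+ replicates 1, 2 and 3. In tdTom- replicates 1, 2 and 3 it was 37.9, 55.9 and 41.2 CPM. This sum was highest in replicate 2 of each fraction, while Angpt1 was highest in replicate 3 of the tdTom+ and replicate 2 of the tdTom- libraries. No marker of these 3 lists was at 0 in all 3 libraries of a fraction, and the part of these cells in the Angpt1 counts was not tested.

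The ratio of Angpt2 to Angpt1 counts, ligand to ligand, was 7.02, 10.3 and 4.45 in tdTom+ replicates 1, 2 and 3. In tdTom- replicates 1, 2 and 3 it was 6.46, 4.95 and 14.5. Angpt2 thus exceeded Angpt1 in all 6 libraries, and the highest and the second lowest ratio both came from tdTom- cells. The mean log2 ratio was 2.77 ± 0.61 in tdTom+ and 2.93 ± 0.79 in tdTom- cells (SD, n = 3), a difference of -0.16 that was well within the spread (two-sided exact permutation test, p = 0.8, adjusted p = 0.9 over 3 ratios).

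**Figure D2:**
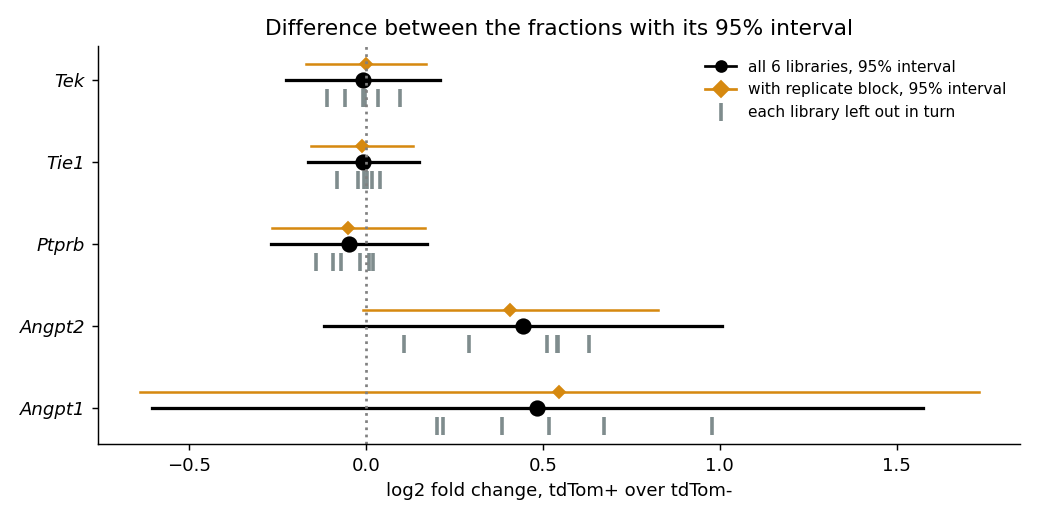
Log2 fold change of each member, tdTom+ over tdTom- (horizontal axis), with its 95% interval from all 6 libraries (black), with the replicate number as a block (orange), and as a value with each library left out in turn (grey ticks). Every interval from all 6 libraries holds 0; those of Tek, Tie1 and Ptprb end within 0.27 of it, while that of Angpt1 reaches 1.57.

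Levels can be compared between genes only per length, and were divided by the merged exon length of each gene in GENCODE M21. This length need not be that over which the reads were counted, nor that of the expressed transcript, so ratios between genes are approximate. On this scale of CPM per kilobase (kb), averaged over the 6 libraries, the order was Tie1 at 209, Tek at 145, Ptprb at 14.8, Angpt2 at 9.57 and Angpt1 at 0.965. Tie1 exceeded 98.8% and Tek 97.9% of the tested genes that had a length, Ptprb 67.5%, Angpt2 56.3% and Angpt1 15.0%. Receptor transcripts were therefore far above those of both ligands in either fraction.

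Tie1 per kb was above Tek in every library, by 1.26-fold to 1.65-fold, and the lowest Tie1 value, 194, was above the highest Tek value, 166. Tek was 8.82-fold to 10.3-fold above Ptprb, whose merged exons span 13.3 kb against 4.71 kb for Tek. Ptprb and Angpt2 were not separated: their ratio ran from 0.891 to 2.32, and the highest Angpt2 value of 15.6, in tdTom+ replicate 2, exceeded the lowest Ptprb value of 13.4. Angpt2 was 6.28-fold to 20.4-fold above Angpt1, with no overlap.

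**Figure D3:**
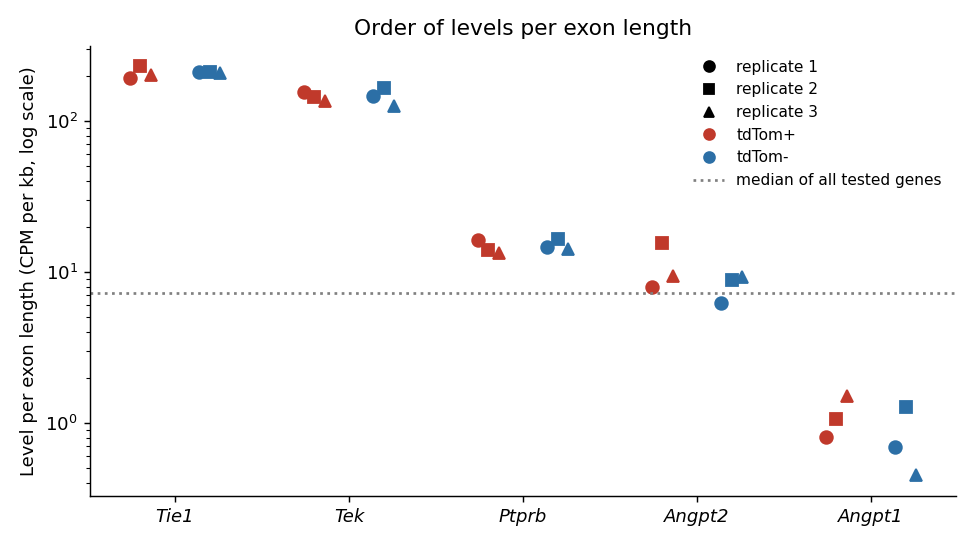
Level of each member per merged exon length (vertical axis, CPM per kb, log scale) in each library; colour gives the fraction, shape the replicate number, and the dotted line the median of all tested genes, 7.27. The receptors sit above 100, Angpt2 and Ptprb overlap, and Angpt1 lies below the median in all 6 libraries.

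Other ligands of the receptors were rare. Angpt4, the third angiopoietin gene, had 4, 0 and 8 counts in tdTom- replicates 1, 2 and 3 and 0 in each tdTom+ library, which allows up to 0.263 to 0.28 CPM (3 counts, for counting error only). Svep1, which encodes a matrix protein reported to bind TIE1, had 25, 2 and 66 counts in tdTom+ replicates 1, 2 and 3 and 9, 8 and 10 in tdTom- replicates 1, 2 and 3. The tdTom+ libraries held both its lowest and its highest values, and its log2 change of 1.67 ± 1.01 (SE) did not pass (adjusted p = 0.644 by edgeR). Lect2, whose product is also a TIE1 ligand, had 3 counts in all. Angpt4, Svep1 and Lect2 were picked out after their values were seen.

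Genes that carry or relay the Tie signal showed no called difference. Of 36 such genes in the table, 33 were tested, and 0 rose and 0 fell, against 1.58% of all tested genes. With edgeR 5 of the 33 had an unadjusted p under 0.05, beside 10.7% of all tested genes, and 0 passed with DESeq2. The median log2 change was -0.007, with 16 values above 0 and 17 below, beside a median of 0.0 over all tested genes. The smallest p-values were those of Pik3cb, a catalytic subunit of PI3 kinase, Mapk3, the kinase ERK1, and Rap1a, a small GTPase of junctions. Pik3cb had 16.2 ± 3.44 CPM in the tdTom+ and 29.4 ± 9.53 CPM in the tdTom- libraries (SD, n = 3), with a log2 change of -0.86 ± 0.27 (SE; adjusted p = 0.197 by edgeR). Mapk3 had 168 ± 5.93 against 203 ± 17.4 CPM and Rap1a 139 ± 12.7 against 115 ± 2.34 CPM (SD, n = 3; edgeR adjusted p = 0.211 and 0.292).

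Genes at the core of the route from TIE2 to the nucleus were among those that did not pass. Akt1, an AKT gene, had a log2 change of -0.007 ± 0.064 (SE; adjusted p = 0.988 by edgeR) at 491 and 493 CPM. Foxo1 had 234 and 252 CPM in tdTom+ and tdTom- cells and a log2 change of -0.11 ± 0.078 (SE; adjusted p = 0.71 by edgeR). Cdh5, which encodes VE-cadherin, the other substrate of VE-PTP, had 554 and 494 CPM and a log2 change of 0.17 ± 0.082 (SE; adjusted p = 0.534 by edgeR). The adaptor gene Dok2, which TIE2 recruits, was low, at 3.37 and 2.97 CPM. These 4 were chosen after their values were seen, for their place in the pathway.

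Known FOXO targets other than Angpt2 also gave no call. All 18 were tested, with 0 higher and 0 lower, against 1.58% of all tested genes. At an unadjusted p under 0.05 with edgeR there were 2, beside 10.7% of all tested genes, and the median log2 change was 0.001. Pdk4, a kinase gene that limits glucose oxidation, had 245, 146 and 367 counts in tdTom+ replicates 1, 2 and 3 and 121, 95 and 82 in tdTom- replicates 1, 2 and 3. The groups did not overlap in counts, but its log2 change of 1.26 ± 0.34 (SE) did not pass (adjusted p = 0.12 by edgeR). It passed with DESeq2 (adjusted p = 0.0192) and without tdTom+ replicate 2 (edgeR adjusted p = 0.0316). Pik3ip1, an inhibitor of PI3 kinase, pointed the other way, with 15.0 ± 5.64 CPM in the tdTom+ and 27.2 ± 3.45 CPM in the tdTom- libraries (SD, n = 3; edgeR adjusted p = 0.204), and Txnip had 190 ± 16.6 and 163 ± 18.3 CPM (SD, n = 3; edgeR adjusted p = 0.514).

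Among the angiopoietin-like genes, relatives whose products do not bind TIE2, 4 of 7 were tested and 0 passed. All 4 had a log2 fold change below 0, with a median of -0.58. With edgeR 2 had an unadjusted p under 0.05, beside 10.7% of all tested genes. Angptl2 had 402, 331 and 305 counts in tdTom+ replicates 1, 2 and 3 and 750, 727 and 351 in tdTom- replicates 1, 2 and 3. Its level was 31.3 ± 3.49 CPM in the tdTom+ and 57.8 ± 17.0 CPM in the tdTom- libraries (SD, n = 3), for a log2 change of -0.89 ± 0.21 (SE) that missed the threshold (edgeR adjusted p = 0.0802). With the replicate number as a block it was -0.85 and passed (edgeR adjusted p = 0.0228), and it also passed with DESeq2 (0.00576), without the filter on low counts (0.0417) and without tdTom- replicate 3 (0.0385). Angptl1 had 2.87 ± 1.46 against 8.13 ± 5.11 CPM and Angptl4, a lipase inhibitor gene, 14.0 ± 3.09 against 16.6 ± 1.60 CPM (SD, n = 3; edgeR adjusted p = 0.313 and 0.818).

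Alongside these values, the mural and mesenchymal list of 17 genes, led by Col3a1 and with Rgs5 the least abundant, had a summed level of 222 to 735 CPM in tdTom+ and 540 to 1207 CPM in tdTom- libraries. Its 16 tested genes had a median log2 change of -0.73, and 0 passed with edgeR. At an unadjusted p under 0.05 there were 2, beside 10.7% of all tested genes. No marker of the list was at 0 in all libraries of a fraction, and the part of these cells in the Angptl1 and Angptl2 values was not tested.

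**Figure D4:**
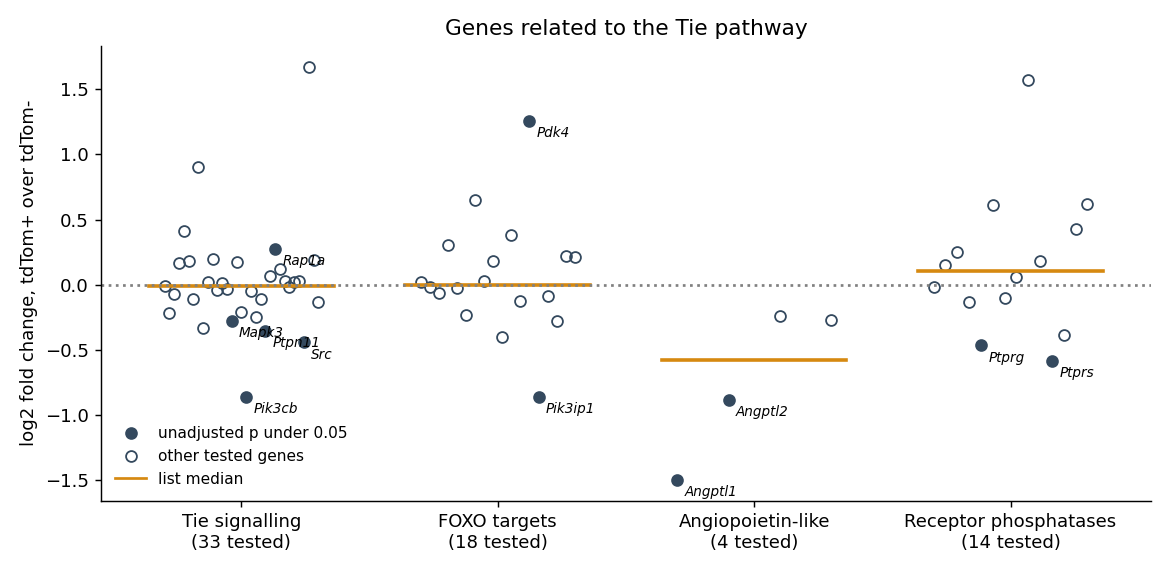
Log2 fold change, tdTom+ over tdTom- (vertical axis), of each tested gene in 4 lists related to the Tie pathway; filled points had an unadjusted p under 0.05 and orange lines are list medians. No point passed after adjustment over all genes; the medians of the Tie signalling and FOXO target lists lie at 0 within 0.01, and that of the 4 angiopoietin-like genes at -0.58.

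Ptprb belongs to the receptor-type tyrosine phosphatases, of which 20 others were in the table and 14 tested. None passed with edgeR, and the median log2 change was 0.11. At an unadjusted p under 0.05 there were 2, beside 10.7% of all tested genes. Ptprg had 109 ± 11.9 CPM in the tdTom+ and 150 ± 16.2 CPM in the tdTom- libraries (SD, n = 3), for a log2 change of -0.46 ± 0.11 (SE) that missed the threshold (edgeR adjusted p = 0.0879). It passed with the replicate number as a block (edgeR adjusted p = 0.0498) and with DESeq2 (0.0114). Ptprs had 68.9 ± 5.55 against 103 ± 27.5 CPM (SD, n = 3; edgeR adjusted p = 0.174), and passed with DESeq2 (adjusted p = 0.0435). Ptprn was low, at 1.60 ± 0.608 against 0.537 ± 0.442 CPM (SD, n = 3; edgeR adjusted p = 0.643).

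Markers of other cell types were summed in the same way; the sort gated against CD45, CD11b and KIT, and a sum does not show that such cells were present, since several rest largely on 1 gene. Of the 12 megakaryocyte and platelet genes, from Itga2b, the most abundant, to Gp9, the least, 7 rose and 0 fell with edgeR. Over all tested genes 1.58% were called in either direction. The 12 macrophage genes, led by Mrc1 with Itgam lowest, summed to 89.8 to 157 CPM in tdTom+ and 46.3 to 59.7 CPM in tdTom- libraries. Of the 9 tested, 1, Mrc1, rose, beside the same 1.58%. Mrc1, which sinusoidal endothelium also expresses, made up 91.2 of a mean sum of 126 CPM in tdTom+ and 28.1 of 52.7 CPM in tdTom- libraries, while C1qa and C1qc, which encode complement proteins made by macrophages, were at 1.15 and 2.25 CPM in tdTom+ and 1.17 and 2.19 CPM in tdTom- libraries. C1qb, another complement gene of the list, was higher with the label, averaging 9.45 ± 1.33 against 4.48 ± 1.57 CPM (SD, n = 3). That log2 change, 1.08 ± 0.37 (SE), missed the threshold (edgeR adjusted p = 0.267, unadjusted 0.0146). Among the 9 tested macrophage genes, 7 log2 changes were above 0 and 2 below, and the part of macrophages in the Mrc1 values was not tested. C1qa, C1qb and C1qc were picked out after their values were seen. The 13 blood progenitor genes, led by Kit, summed to 208 to 244 and 263 to 281 CPM. Gfi1 and Cd48 were at 0 in all tdTom+ libraries and too low to test. In tdTom- replicates 1, 2 and 3 Gfi1 had 4, 3 and 0 counts and Cd48 3, 0 and 2. Gfi1b, also of this list, pointed the other way. Its counts were 40, 58 and 57 in tdTom+ replicates 1, 2 and 3. In the same order they were 7, 6 and 7 in tdTom- libraries. With edgeR, Gfi1b stayed uncalled at an adjusted p of 0.0563, its log2 fold being 2.83. Of the 9 tested blood progenitor genes, 4 were above 0 on that scale and 5 below. Gfi1b was picked out after its values were seen. The 12 hepatoblast genes summed to 161 to 178 and 211 to 464 CPM, with Trf alone at 120 of a mean of 167 CPM in tdTom+ and 157 of 336 CPM in tdTom- libraries. Serpina1a, too low to test, was at 0 in all tdTom+ libraries and had 0, 0 and 2 counts in tdTom- replicates 1, 2 and 3. The 10 neural genes, with Neurod1 lowest, summed to 258 to 277 and 293 to 314 CPM, of which Nes alone had means of 208 and 214 CPM. In the heart muscle list Tnni1 led and Nppa was lowest, and in the endothelial core list these were Kdr and Erg. The 4 lists of heart muscle, blood progenitors, hepatoblasts and neural cells had 0 genes that passed with edgeR. At an unadjusted p under 0.05 they had 3 of 6, 2 of 9, 2 of 9 and 3 of 8 tested genes, beside 10.7% of all tested genes.

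**Figure D5:**
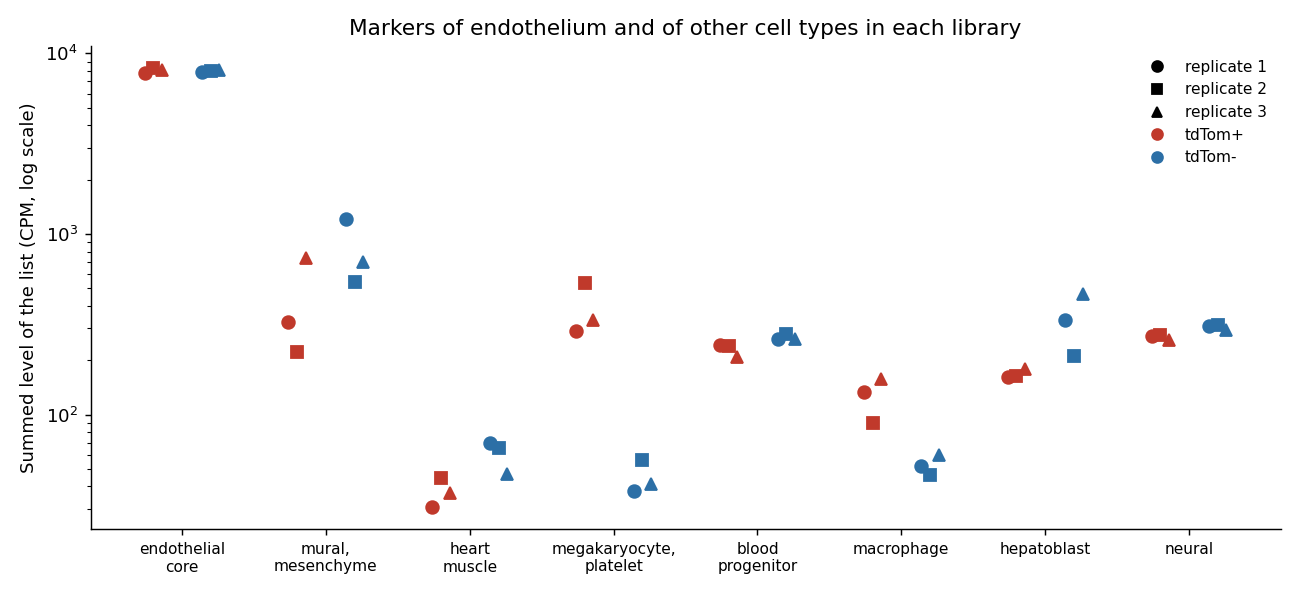
Summed level of each marker list (vertical axis, CPM, log scale) in each library; colour gives the fraction and shape the replicate number. The endothelial core sums lie within 7836 to 8316 CPM in all 6 libraries, and the megakaryocyte and platelet sums are 290 to 536 CPM in tdTom+ and 37.9 to 55.9 CPM in tdTom- libraries.

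Genes whose pattern over the 6 libraries was most like that of a member were found by the root mean square difference of log2 CPM, each gene centred on its own mean, among 10074 tested genes of at least 3 on the log2 CPM scale. For Tek they were Cav2, a caveolin gene, at 0.015, Sept11, a septin gene, at 0.033, and Timp3, a metalloprotease inhibitor gene, at 0.038, where the median gene differed by 0.22. For Tie1 they were Ppic, Wdr77 and R3hdm4, at 0.019 to 0.028, and for Ptprb they were Upf2, Cstf2 and Ppat, at 0.029 to 0.035. Neighbours of Angpt2 were Ftx at 0.10, Il27ra at 0.102 and Susd1 at 0.117, against a median of 0.425. Those of Angpt1, Zfp862, Yod1 and Dennd2c, differed from it by 0.204 to 0.21 against a median of 0.549. The members' own spread around their means, on the same scale, was 0.131 for Tek, 0.075 for Tie1 and 0.113 for Ptprb. It was 0.39 for Angpt2 and 0.519 for Angpt1, so the differences do not rank the members by how close their neighbours are. The 5 members took up no place in each other's lists by construction, and likeness over 6 libraries of 2 groups is a description only.

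In the authors' deposited table, turned to the direction tdTom+ over tdTom-, the log2 fold changes were -0.009 for Tek, -0.009 for Tie1, -0.049 for Ptprb, 0.44 for Angpt2 and 0.48 for Angpt1. The adjusted p-values in the authors' deposited table were 0.998, 0.997, 0.974, 0.589 and 0.896 in the same order.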

How the data were processed

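The authors deposited 1 table of read counts per gene symbol and library, as whole numbers without normalization, with the log2 fold change and p-values of their own comparison (tdTom- over tdTom+, turned round here). The tools listed, without role or order, in the submitters' processing notes are featureCounts 1.4.6, Picard 2.7.1.1, STAR 2.5.2b, Trimmomatic 0.36.4 and DESeq2, and the build is mm10. Per the labels' protocols, cDNA was amplified with the SMART-seq V4 kit and libraries made with Nextera XT, which marks no strand. Reads without molecular identifiers are not independent molecules. The 6 normalized per-library columns were not used. Groups came from sample titles.

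Genes were tested on counts with edgeR 4.0.16 in R 4.3.3 (two-sided quasi-likelihood F-test, robust, TMM scaling, genes kept by filterByExpr at a minimum count of 10, no block) and adjusted over 13142 genes. SEs were derived from the fold change and the F statistic, and 95% intervals use the fit's total degrees of freedom. The test was tested on simulated data. Libraries of 1 group differed by more than sampling noise. The mean chi-square per gene was 15.3 to 19.7 between tdTom+ libraries and 8.18 to 10.6 between tdTom- libraries. Ratios used an exact permutation test (SciPy 1.17.1) with 0.5 added to each count. Alternatives were DESeq2 1.42.0, limma-voom (limma 3.58.1), DESeq2's size factors, no filter, a minimum count of 50, the replicate block and leaving out each library. The protocol divides 3 embryos into both fractions. Deviations of same-numbered libraries correlated across genes at 0.112, 0.091 and 0.166, and those of differently numbered libraries at -0.163 to 0.063. Xist was at 1224 and 571 counts in the libraries numbered 3 and at most 8 elsewhere. Ddx3y was at 12 and 2 counts in the libraries numbered 3 and at 1204 to 1537 elsewhere. The labels tie no number to an embryo and 1 of these correlations is under 0.1, so the pairing is likely but not given. The main test has no block, and blocked values are given where they change a call. This was settled with call counts with the block already known.

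Gene models were GENCODE M21 (GRCm38); 94.3% of tested genes had a length. List genes Diaph1, Angptl8, Spi1 and Adgre1 were matched by RefSeq synonyms. The members and lists were chosen with earlier results of these data known. Named genes were the members, the sort genes, per pathway list those that passed or else the 3 with the smallest p, per marker list the most and least abundant, and the 3 nearest patterns per member; other genes, such as markers at 0 and Xist, were picked later.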

Additional observations from a re-analysis of the deposited data

How the results depend on the processing

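None of the 5 members passed in any of the 12 alternatives (60 values in all, lowest adjusted p = 0.319). With a library left out, the log2 fold change ran from -0.111 to 0.097 for Tek, -0.084 to 0.04 for Tie1 and -0.142 to 0.02 for Ptprb, with either sign, and from 0.106 to 0.629 for Angpt2 and 0.201 to 0.979 for Angpt1. Signs of Tek turned without tdTom+ replicate 3 or tdTom- replicate 2, of Tie1 without tdTom+ replicate 1, tdTom- replicate 1 or tdTom+ replicate 3, and of Ptprb without tdTom+ replicate 3 or tdTom- replicate 2; the cause was not tested. The replicate block changed no member's call, with log2 fold changes of -0.001 for Tek, -0.012 for Tie1, -0.051 for Ptprb, 0.408 for Angpt2 and 0.546 for Angpt1.

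Over all genes 208 were called, 295 with the replicate block, 484 with DESeq2 and 62 to 189 with a library left out. Among FOXO targets, called genes were 0, but 1 with DESeq2 and 0 to 1 with a library left out (1 without tdTom+ replicate 2). Among angiopoietin-like genes they were 0, but 1 without the filter, with DESeq2 and with the replicate block, and 0 to 1 with a library left out (1 without tdTom- replicate 3). Among receptor phosphatases they were 0, but 2 with DESeq2 and 1 with the replicate block. No setting called a Tie signalling gene. Counts of 21 to 84 per library limit what can be said of Angpt1.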
